A study of Homo sapiens with 8 samples.

Results

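Mitochondrial ribosomal protein genes were taken as the genes whose symbol starts with MRPL, for the large subunit of the mitochondrial ribosome, or MRPS, for the small subunit. Symbols were found through the RefSeq transcript identifiers of the expression table. Of 14524 named genes in the table, 82 loci carried such a symbol, and 77 of these were protein-coding ribosomal genes, 49 MRPL and 28 MRPS, with 108 listed transcripts. The remaining 5 loci were antisense transcripts or pseudogenes and were counted apart.

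RNA sequencing had been carried out on SQ20B cells, a line derived from a head and neck squamous cell carcinoma. Cells were kept in normoxia (4 replicates) or in hypoxia at 0.5% O2 for 16 h (4 replicates), and the labels name no other treatment of either group. All samples come from this 1 cell line. The table gave 1 expression value per transcript and condition, the authors' value over the replicates, in FPKM, a read count scaled by transcript length and by the size of the library. No spread between replicates could therefore be computed, and the differences are described without a test, since the test columns that the authors placed in the table were not used. The table gives no read counts, so no counting error could be set beside the values.

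The mitochondrial ribosome translates the few messenger RNAs encoded by mitochondrial DNA, all of which specify core subunits of the respiratory chain and ATP synthase. Its ribosomal RNAs come from mitochondrial DNA, whereas all of its proteins are encoded in the nucleus, made in the cytosol and imported. Some of these proteins have bacterial homologues, and others are found only in mitochondrial ribosomes. The large subunit joins amino acids at the peptidyl transferase centre and releases the growing chain through an exit tunnel at the inner membrane, and the small subunit binds the messenger RNA and reads its codons.

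The condition labels were checked with genes known to be induced by low oxygen. CA9, a carbonic anhydrase, had 0.694 FPKM in normoxia and 21.6 in hypoxia, and BNIP3, a mitophagy receptor, had 68.9 and 490.4. Of 7 listed epithelial markers, 6 had a mean of at least 0.5 FPKM. Among them were the basal keratin KRT5 (398 and 442 FPKM) and the transcription factor TP63 (42.8 and 44.6). KRT17 had 50.5 and 56.2 FPKM, whereas KRT6A (5.10 and 3.26), the adhesion molecule EPCAM (317 and 233) and SFN (16.9 and 14.6) were lower in hypoxia, and KRT14 was not analysed here. CDH5, an endothelial cadherin, was measured at 4.78 and 2.83 FPKM, and its part in the results was not tested. Of the other listed markers, the endothelial PECAM1 and those of leukocytes and fibroblasts were not analysed here.

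Nearly every mitochondrial ribosomal protein gene had a lower level in hypoxia than in normoxia. Of the 77 genes, 75 (97.4%) were lower, against 56.4% of all 12103 genes with a mean of at least 0.5 FPKM, a limit that all 77 passed. Changes are given as the log2 of hypoxia over normoxia after adding 0.1 to each FPKM, which understates the change of weakly expressed genes. On this scale the median change was -0.54 over the 77 genes and -0.07 over all genes. At least 1.5-fold lower were 36 of the 77 (46.8%), compared with 11.2% of all genes, and at least 2-fold lower were 2 of the 77, compared with 2.62% of all genes. When both conditions were scaled to the same summed FPKM, 11 of the 77 were at least 1.5-fold lower, compared with 5.02% of all genes. A single gene, MRPS6, was at least 1.5-fold higher, a size reached by 9.94% of all genes. The family is more abundant than most genes, and among 7664 genes with a mean of at least 5 FPKM, 64.4% were lower, 12.5% were lower by at least 1.5-fold and 6.25% were higher by at least 1.5-fold. In RNA from a whole culture, a lower level in each cell and a smaller number of expressing cells cannot be told apart.

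The difference was of moderate size and varied less from gene to gene than over all genes. The interquartile range of the changes was 0.32 over the 77 genes and 0.60 over all genes. It was 0.23 in cytosolic ribosomal protein genes and 0.28 in complex I subunits, so such similarity was not particular to the 77. The SD was 0.26 over the 77, 0.27 in the cytosolic genes and 0.21 in complex I. The share of all genes between -0.90 and -0.30 was not computed. The changes of 68 of the 77 genes lay between -0.90 and -0.30, and 73 of 77 were at least 1.2-fold lower, compared with 33.0% of all genes. A fold of 1.5 fell in the middle of this range, with 22 genes between 1.4-fold and 1.6-fold lower. MRPL12, at 6.82 FPKM in normoxia and 4.51 in hypoxia, lay just past it, and MRPS24, at 164 and 110.3 FPKM, just short of it.

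The order of the genes by level was nearly the same in both conditions. Across the 77 genes, which share the same libraries, the Spearman correlation of normoxia and hypoxia levels was 0.97. The most abundant were MRPL33 (423 and 308 FPKM), MRPL51 (373 and 284 FPKM) and MRPS17 (270 and 221 FPKM), and the least abundant was MRPL4 (1.93 and 1.23 FPKM). The Spearman correlation of mean FPKM with log2 change was 0.09 across the 77 genes. In normoxia 19 genes had at least 100 FPKM, and in hypoxia 9 did.

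**Figure D1:**
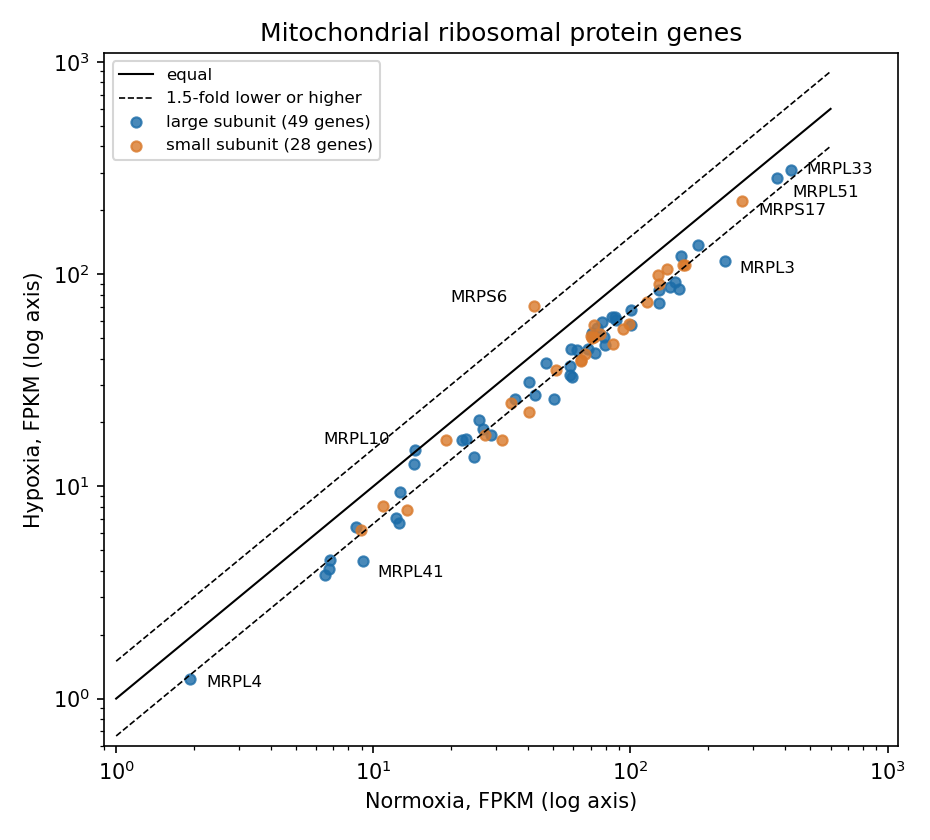
FPKM in normoxia (x axis) against hypoxia (y axis), both on log axes, for 77 mitochondrial ribosomal protein genes, each point being 1 gene, blue for the large and orange for the small subunit. The solid line marks equal levels and the dashed lines a 1.5-fold difference, and 75 of 77 points lie below the solid line, with MRPS6 above the upper dashed line.

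The large and small subunits had similar changes. In the large subunit, 48 of 49 genes had less FPKM in hypoxia, their median change being -0.59 and the middle 50% of genes between -0.78 and -0.42. In the small subunit, 27 of 28 genes were lower, with a median change of -0.53 and the middle 50% between -0.71 and -0.45. The medians differed by -0.05 (large minus small), against an SD of 0.26 over the 77 genes, and the ranges overlapped almost fully: 27 of the 28 small subunit genes lay within the range of the large, and 46 of the 49 large subunit genes within that of the small. Lower by at least 1.5-fold were 25 large subunit genes (51.0%) and 11 small subunit genes (39.3%), a comparison made at a fold that splits the middle of both distributions. Scaled to equal summed FPKM, the medians were -0.37 for the large and -0.31 for the small subunit, and their difference was -0.06.

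Summed FPKM gave the same picture weighted by abundance. The sum over the large subunit was 3825 FPKM in normoxia and 2570 in hypoxia, 32.8% lower, and that over the small subunit was 2220 and 1578, 28.9% lower. Without MRPS6 the small subunit sum was 30.8% lower. Over all genes with a mean of at least 0.5 FPKM, the sum was 14.5% lower. The ratio of large to small subunit sums was 1.72 in normoxia and 1.63 in hypoxia, and without MRPS6 it was 1.76 and 1.70. Relative to the summed FPKM of the whole table in each condition, the 77 genes had a ratio of hypoxia to normoxia of 0.802. Together the genes took 1.13% of all FPKM in normoxia and 0.905% in hypoxia.

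**Figure D2:**
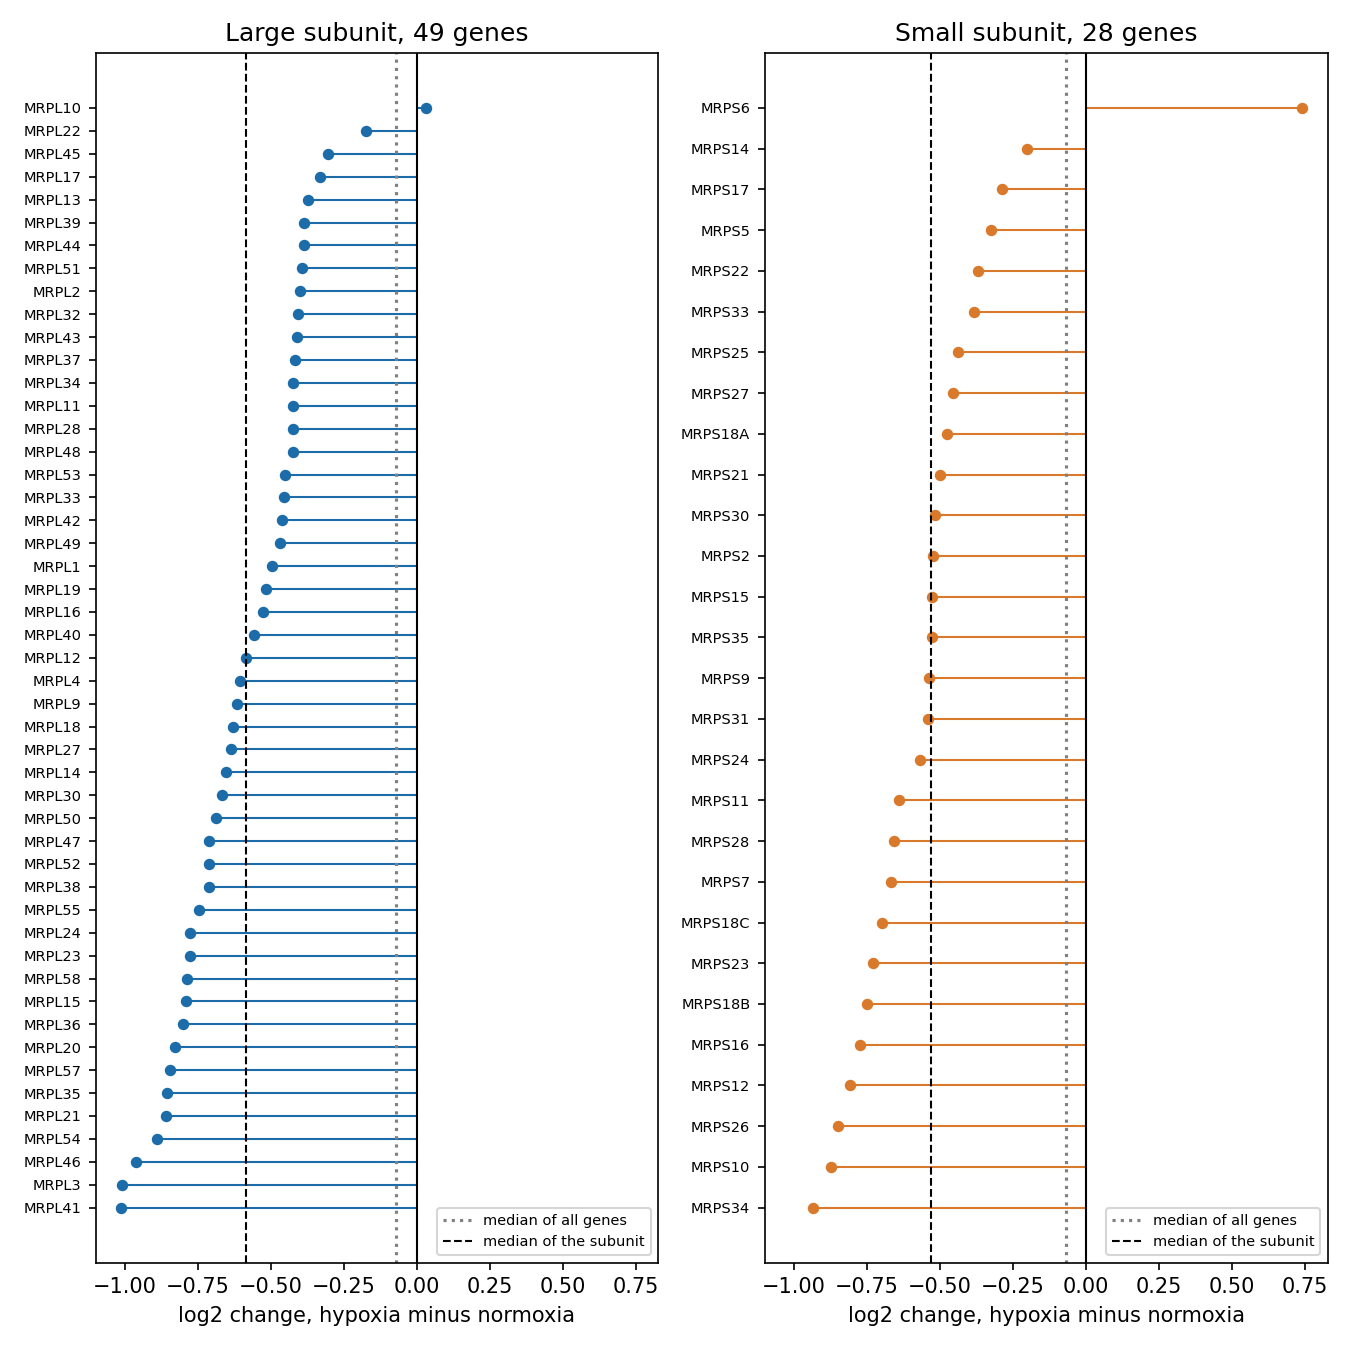
Log2 change (hypoxia minus normoxia, x axis) of each large subunit gene (left, 49 genes) and small subunit gene (right, 28 genes), ordered by change. The grey dotted line is the median of all genes (-0.07) and the black dashed line that of the subunit (-0.59 and -0.53), and bars to the right of 0 belong to MRPL10 and MRPS6 only among the 77 genes.

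The lowest changes were those of MRPL41 and MRPL3. MRPL41, a mitochondria-specific protein of the large subunit (GRCh37, chr9:140446331-140447007, plus strand), went from 9.12 to 4.47 FPKM, 2.04-fold lower. MRPL3, whose bacterial homologue L3 reaches toward the peptidyl transferase centre (chr3:131181056-131221827, minus strand), went from 233 to 116 FPKM, 2.01-fold lower. These were the 2 genes past 2-fold, and both changes lay at percentile 2.5 of all genes.

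Next in the large subunit were MRPL46, a central protuberance protein (50.3 and 25.8 FPKM, change -0.96), MRPL54 (12.6 and 6.75 FPKM, change -0.89) and MRPL21 (154 and 85.0 FPKM, change -0.86). In the small subunit the lowest change was that of MRPS34, a mitochondria-specific protein, at 31.8 and 16.5 FPKM (change -0.94). It was followed by MRPS10 (85.8 and 46.8 FPKM, change -0.88), MRPS26 (40.5 and 22.4 FPKM, change -0.85), MRPS12 (13.5 and 7.69 FPKM, change -0.81) and MRPS16 (93.8 and 54.8 FPKM, change -0.77). These genes span weakly to strongly expressed members in both subunits.

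At the other end, 2 genes were not lower in hypoxia. MRPL10, a protein at the base of the stalk that recruits translation factors, had 14.5 FPKM in normoxia and 14.9 in hypoxia (change 0.03). MRPS6, the homologue of bacterial S6 on the platform of the small subunit, had 42.2 and 70.6 FPKM, 1.67-fold higher. Closest to 0 among the lower genes of the large subunit were MRPL22 (14.4 and 12.7 FPKM, change -0.18), MRPL45 (47.0 and 38.0 FPKM, change -0.30), MRPL17 (25.8 and 20.5 FPKM, change -0.33) and MRPL13 (158 and 122 FPKM, change -0.37). In the small subunit these were MRPS14 (19.1 and 16.6 FPKM, change -0.20), MRPS17 (change -0.29), MRPS5 (72.1 and 57.6 FPKM, change -0.32) and MRPS22 (128 and 99.4 FPKM, change -0.37). With equal summed FPKM the sign turned for MRPL22 and MRPS14, and with quantile scaling for MRPS17.

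MRPS6 shares its locus with another gene. In the GENCODE annotation on GRCh37, MRPS6 lies at chr21:35445524-35515334 on the plus strand, and SLC5A3, which encodes a myo-inositol transporter, lies inside it at chr21:35445878-35478559 on the same strand. The genes have 1 identical exon and 265 exonic bases in common. MRPS6 has 4273 exonic bases and SLC5A3 11566, of which the shared bases are 2.29%. SLC5A3 went from 20.1 FPKM in normoxia to 90.9 in hypoxia (change 2.17), and its part in the value of MRPS6 was not tested. Without MRPS6, the highest change in the small subunit was the -0.20 of MRPS14, and all 27 genes left were lower in hypoxia.

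Lower levels in hypoxia were found in each part of the large subunit. All 6 genes listed around the peptidyl transferase core were lower, 3 of them by at least 1.5-fold, with a median change of -0.57. Their sum was 42.3% lower, compared with 14.5% over all genes past the FPKM limit, and MRPL3 gave the most FPKM to it. How near each protein lies to the core was not examined. Besides MRPL3, MRPL14 had 58.3 and 37.0 FPKM (change -0.65), MRPL4 a change of -0.61, MRPL16 87.6 and 60.8 FPKM (change -0.53), MRPL19 26.7 and 18.6 FPKM (change -0.52) and MRPL2 8.55 and 6.45 FPKM (change -0.40). Of the 8 central protuberance genes, which sit at the top of the subunit, all were lower and 6 were lower by at least 1.5-fold, with a median of -0.67.

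Within the central protuberance, MRPL46 was followed by MRPL58, a peptidyl-tRNA hydrolase built into the ribosome (79.7 and 46.2 FPKM, change -0.79). MRPL55 (6.46 and 3.81 FPKM, change -0.75), MRPL38 (6.74 and 4.07 FPKM, change -0.71), MRPL27 (78.9 and 50.8 FPKM, change -0.64) and MRPL18 (130 and 83.7 FPKM, change -0.63) were also past 1.5-fold. MRPL40 (100.1 and 67.9 FPKM, change -0.56) and MRPL48 (71.1 and 52.9 FPKM, change -0.42) were not. The members of this group thus ranged from below 10 to above 100 FPKM in normoxia.

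Around the exit tunnel, all 8 genes were lower and 3 were past 1.5-fold, with a median change of -0.39. The values were split, with MRPL24 (72.7 and 42.5 FPKM, change -0.78), MRPL23 (12.3 and 7.13 FPKM, change -0.78) and MRPL47 (143 and 87.4 FPKM, change -0.71) on the lower side. MRPL39 (77.6 and 59.4 FPKM) and MRPL44 (40.5 and 30.9 FPKM) both had a change of -0.39, and MRPL17, MRPL45 and MRPL22 lay closer to 0. Of these, MRPL45 is the protein that holds the tunnel exit at the inner membrane.

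Of the 4 stalk genes, 3 were lower, 1 of them by at least 1.5-fold. Next to MRPL10, MRPL12, the protein to which translation factors dock, had a change of -0.59, MRPL1 had 62.0 and 43.9 FPKM (change -0.50) and MRPL11 had 84.5 and 63.0 FPKM (change -0.42). MRPL10 and MRPL12, which bind each other in the ribosome, lay at opposite ends of this group.

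The other 17 large subunit genes were all lower in hypoxia, 9 of them by at least 1.5-fold, with changes between -0.85 and -0.41. They ranged from 12.7 to 182 FPKM in normoxia and from 9.43 to 137 in hypoxia. The 9 were MRPL35, MRPL57, MRPL20, MRPL36, MRPL15, MRPL52, MRPL50, MRPL30 and MRPL9, of which MRPL20, the homologue of an early assembly protein of the bacterial large subunit, had 129 and 72.8 FPKM. The 8 closer to 0 were MRPL49, MRPL42, MRPL53, MRPL28, MRPL34, MRPL37, MRPL43 and MRPL32, of which MRPL32 had 182 and 137 FPKM.

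The parts of the small subunit also had lower levels in hypoxia. All 6 genes of the decoding centre and messenger RNA path were lower, 3 past 1.5-fold, with a median change of -0.61. MRPS12, the homologue of bacterial S12, which guards decoding accuracy, had the lowest change in this group. It was followed by MRPS7 (66.6 and 41.9 FPKM, change -0.67), MRPS11 (27.2 and 17.4 FPKM, change -0.64), MRPS24 (change -0.57), MRPS2 (8.99 and 6.22 FPKM, change -0.52) and MRPS5 (change -0.32).

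All 6 genes of the head were lower, with 1, MRPS10, past 1.5-fold, and a median change of -0.53. MRPS31 had 51.5 and 35.3 FPKM (change -0.54), MRPS9 76.1 and 52.4 FPKM (change -0.54), MRPS35 129 and 89.5 FPKM (change -0.53) and MRPS33 138 and 106 FPKM (change -0.38), with MRPS14 closest to 0. The head thus held genes from both ends of the subunit's range.

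In the body and platform, 13 of 14 genes were lower and 7 were past 1.5-fold, with a median change of -0.59 and MRPS6 as the exception. Beyond MRPS34, MRPS26 and MRPS16, the genes past 1.5-fold were MRPS18B (98.4 and 58.5 FPKM, change -0.75), MRPS23 (64.4 and 38.8 FPKM, change -0.73), MRPS18C (64.2 and 39.6 FPKM, change -0.70) and MRPS28 (116 and 73.8 FPKM, change -0.66). Short of it were MRPS15 (160 and 111 FPKM, change -0.53), MRPS21 (71.1 and 50.2 FPKM, change -0.50), MRPS27 (69.9 and 50.9 FPKM, change -0.46), MRPS25 (10.9 and 8.04 FPKM, change -0.44), MRPS22 and MRPS17. The table lists MRPS18B on an alternate haplotype of chromosome 6 and gives no second entry for it.

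Symbols do not always match position in the ribosome. MRPS30 and MRPS18A carry small subunit symbols but are placed in the large subunit by structure, and their changes were -0.52 (72.0 and 50.3 FPKM) and -0.48 (34.3 and 24.6 FPKM). MRPS18A is 1 of 3 paralogs of bacterial S18, and all 3 were lower, with MRPS18B and MRPS18C past 1.5-fold and MRPS18A short of it.

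Proteins with and without a bacterial homologue had similar changes. Of 46 genes with a homologue, 44 were lower and 24 were past 1.5-fold, with a median of -0.60. All 30 mitochondria-specific genes were lower, 12 past 1.5-fold, with a median of -0.52. MRPS18A was in neither list. MRPS18B was counted as mitochondria-specific, although its paralog MRPS18C was counted with the homologues. In the large subunit the medians were -0.61 (30 genes) and -0.49 (20 genes, MRPS30 included), and in the small subunit -0.55 (16 genes) and -0.54 (10 genes).

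Transcripts of 1 gene kept similar shares of it. In 23 genes with more than 1 listed transcript, none shifted its share of the gene's FPKM by 10 percentage points, and the largest shift was 6.41 points in MRPL55. Of 97 member transcripts with a mean of at least 0.5 FPKM, 95 were lower in hypoxia. With only the most abundant transcript of each gene, 75 of 77 genes were lower, against 56.2% of all 11962 genes. The share of all transcripts that were lower, and the shifts in other genes, were not computed.

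The 5 loci without a ribosomal protein had low levels and mixed changes. The pseudogene MRPL45P2 had 4.22 and 4.25 FPKM, MRPS31P5 1.81 and 1.10 FPKM, and MRPL42P5 0.629 and 0.726 FPKM. The antisense transcript MRPL20-AS1 had 4.99 and 3.62 FPKM, and MRPS9-AS1 0.403 and 0.827 FPKM. RefSeq lists 106 pseudogenes named after genes of this family, for 41 of the 77, and reads shared with such copies make single levels less certain. The median change was -0.53 in the 41 genes with a named pseudogene and -0.60 in the 36 without.

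The rest of the mitochondrial translation machinery was described with the same measure. Of 5 ribosomal subunits with other symbols, all were lower: AURKAIP1 (11.5 and 6.62 FPKM) and GADD45GIP1 (4.80 and 2.74 FPKM) both by -0.79, DAP3, a GTP-binding protein of the small subunit (75.2 and 52.5 FPKM), by -0.52, PTCD3 by -0.44 and CHCHD1 by -0.19. KGD4, once named MRPS36 and now known as a part of the ketoglutarate dehydrogenase complex, was not counted and had 65.1 and 49.8 FPKM. Of 14 translation factors, 13 were lower and 6 were past 1.5-fold, with a median of -0.45. The elongation factors TUFM (33.8 and 19.3 FPKM, change -0.80) and GFM1 (40.6 and 24.4 FPKM, change -0.73) and the initiation factor MTIF2 (83.6 and 53.4 FPKM, change -0.65) were among these 6, whereas the release factor MTRF1 had 7.20 and 7.22 FPKM.

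Of 25 assembly and ribosomal RNA factors, 23 were lower and 6 were past 1.5-fold, with a median of -0.47. The lowest were MPV17L2, an assembly factor in the inner membrane (2.79 and 1.03 FPKM, change -1.35), and the ribosomal RNA methyltransferase MRM1 (3.12 and 1.24 FPKM, change -1.26). The helicase DDX28 had 5.79 and 2.90 FPKM (change -0.98). YBEY, an RNA nuclease, and PTCD1 were the 2 that were higher in hypoxia, by 0.10 and 0.58, the latter from 0.475 to 0.761 FPKM.

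The 2 other nuclear-encoded families compared were lower in hypoxia too, but by less. These values were not scaled to equal summed FPKM, a step that raised the median of all genes by 0.22. The median change of 73 cytosolic ribosomal protein genes was -0.29, with 67 lower and 7 (9.59%) past 1.5-fold, and the middle 50% between -0.40 and -0.18. For 35 respiratory complex I subunits it was -0.37, with all 35 lower and 3 (8.57%) past 1.5-fold. The shares past 1.5-fold in these 2 families were below the 11.2% of all genes. Levels were compared over all 75 listed cytosolic ribosomal protein genes, without the limit on mean FPKM. Their median level was 14.6 times that of the mitochondrial ones in normoxia and 17.8 times in hypoxia. No test of these differences between families was possible with 1 value per condition.

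**Figure D3:**
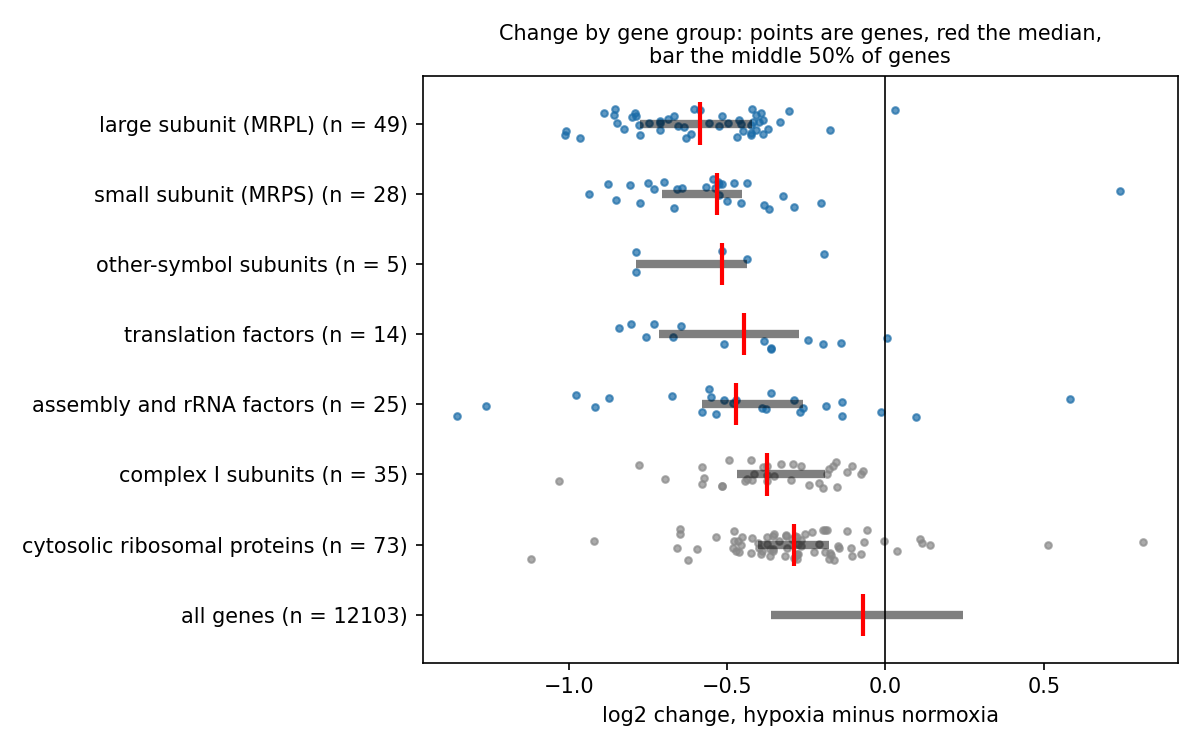
Log2 change (hypoxia minus normoxia, x axis) by gene group, each point being 1 gene, the red line the median and the grey bar the middle 50% of genes. The medians of the large (-0.59) and small (-0.53) mitochondrial subunits lie left of those of complex I (-0.37), cytosolic ribosomal proteins (-0.29) and all genes (-0.07).

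The 77 genes lie on 21 chromosomes of GRCh37, with at most 8 on any of them. For 17 of them a protein-coding gene starts on the opposite strand within 1000 bases upstream, and their median change was -0.70, compared with -0.52 for the other 60. MRPL46 and MRPS11 are such a pair, with starts 63 bases apart, and both were past 1.5-fold. Of 12 partners outside the family with a mean of at least 0.5 FPKM, 9 were lower and 1, the chaperonin subunit gene TCP1 next to MRPL18, was past 1.5-fold, with a median of -0.26. The shares among all genes were 56.4% and 11.2%. The share of all genes that have a partner this close was not computed. Neighbours that overlap at their starts were not counted as partners.

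Partners with a role in mitochondria included NDUFS6, a complex I subunit whose start is 41 bases from that of MRPL36 (change -0.57, against -0.80 for MRPL36). SARS2, the mitochondrial seryl-tRNA synthetase, starts 181 bases from MRPS12 and had a change of -0.55. Some pairs were uneven, as with MRPL52 and the amino acid transporter gene SLC7A7 (change 0.12, starts 59 bases apart) or MRPL27 and the endonuclease gene EME1 (change 0.06, starts 13 bases apart). Overlap in the genome touches 37 of the 77 genes, each with at least 1 other protein-coding gene. The share of all genes with such an overlap was not computed. Although the libraries were made with a stranded kit, the strand setting of the quantification is not given in the sources used here.

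To see what the genes share in sequence, their promoter windows, from 250 bases before to 50 bases after the gene start, were searched for the letters of known motifs on both strands. RefSeq windows (GRCh38.p14) were found for 69 of the 77 genes, and those of MRPL2, MRPL10, MRPL13, MRPL15, MRPL21, MRPL23, MRPL35 and MRPS28 were not used here. Only the first listed window of each gene symbol was searched, which left 27305 of 35116 windows. The motifs searched were those of NRF1 (GCGC, any pair of bases, then GCGC), the ETS family with GABPA (CCGGAAG) and YY1 (AAGATGGC), factors known for nuclear genes of mitochondria. Also searched were the E-box (CACGTG), the core of the hypoxia response element in its forms ACGTG and GCGTG, and the GC box (GGGCGG). The E-box contains ACGTG, and the end of the ETS motif can overlap the start of the YY1 motif.

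ETS letters were present in 29 of 69 windows (42.0%), compared with 20.3% of 9670 windows of genes with a mean of at least 0.5 FPKM and 10.7% of all 27305 windows. YY1 letters were present in 20 (29.0%), compared with 5.64% and 3.03%. NRF1 letters were present in 9 (13.0%), compared with 16.6% and 8.78%. The hypoxia response core was about as frequent as in all genes past the same limit, at 27.5% for ACGTG (27.1% of these) and 56.5% for GCGTG (51.0%). The E-box was present in 8.70% (10.1% of these) and the GC box in 60.9% (69.8%). Both subunits had similar shares, with ETS letters in 17 of 42 large and 12 of 27 small subunit windows and YY1 letters in 12 and 8.

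Windows of genes with low changes are printed as examples, each on the strand of its gene, with the motif in capitals on GRCh38.p14. The ETS letters, or their reverse complement CTTCCGG, lie shortly before the gene start in MRPL3 at chr3:131502986-131503014 (minus strand), MRPS34 at chr16:1773136-1773164 (minus strand) and MRPS10 at chr6:42217866-42217894 (minus strand). The YY1 letters lie just after the start in MRPL46 at chr15:88467362-88467391 (minus strand), MRPS10 at chr6:42217834-42217863 (minus strand) and MRPL20 at chr1:1407260-1407289 (minus strand). The NRF1 letters lie farther upstream in MRPL57 at chr13:21176574-21176603 (plus strand) and MRPL36 at chr5:1799928-1799957 (minus strand).
MRPL3, ETS: tgtaaaacgcaCCGGAAGtgggtccggcg
MRPS34, ETS: tcttccggtgaCTTCCGGccggaccgctg
MRPS10, ETS: ccgctgtaaccCCGGAAGcaatcctgaga
MRPL46, YY1: tgggagaacgaAAGATGGCggcgcccgtaa
MRPS10, YY1: tcgggaccggcAAGATGGCggcgcggacag
MRPL20, YY1: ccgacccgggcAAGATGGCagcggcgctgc
MRPL57, NRF1: cctcggctctGCGCAGGCGCagtcctctct
MRPL36, NRF1: tcgcactccaGCGCCTGCGCactcgctgct

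Position set the motifs apart. Of 21 YY1 matches, 15 began 6 to 35 bases after the gene start, all 15 in the orientation shown for MRPL46. The YY1 letters contain ATG, and whether these 15 matches cover the start codon of the protein was not tested. Of 39 ETS matches, 33 lay before the start, 22 of them within 60 bases of it, and all 9 NRF1 matches lay before it. A match describes letters in the window and not binding, and the lack of one says only that these letters are not there.

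Genes with and without the letters had overlapping changes. The median change was -0.68 in the 20 genes with YY1 letters (middle 50% between -0.76 and -0.46) and -0.53 in the 49 without (between -0.67 and -0.42). For ETS letters it was -0.67 in 29 genes and -0.52 in 40. The window of MRPS6, the gene that was higher in hypoxia, held none of the NRF1, ETS, YY1, E-box or ACGTG letters. It did hold GCGTG and the GC box. Every other gene whose window lacked the former letters was lower in hypoxia, among them MRPL41 (change -1.01), MRPL24 (change -0.78) and MRPL18 (change -0.63). The windows of MRPL24 and MRPL18 also held GCGTG and the GC box. GCGTG was held by 39 of the 69 windows and the GC box by 42, and all of these genes but MRPS6 were lower in hypoxia.

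**Figure D4:**
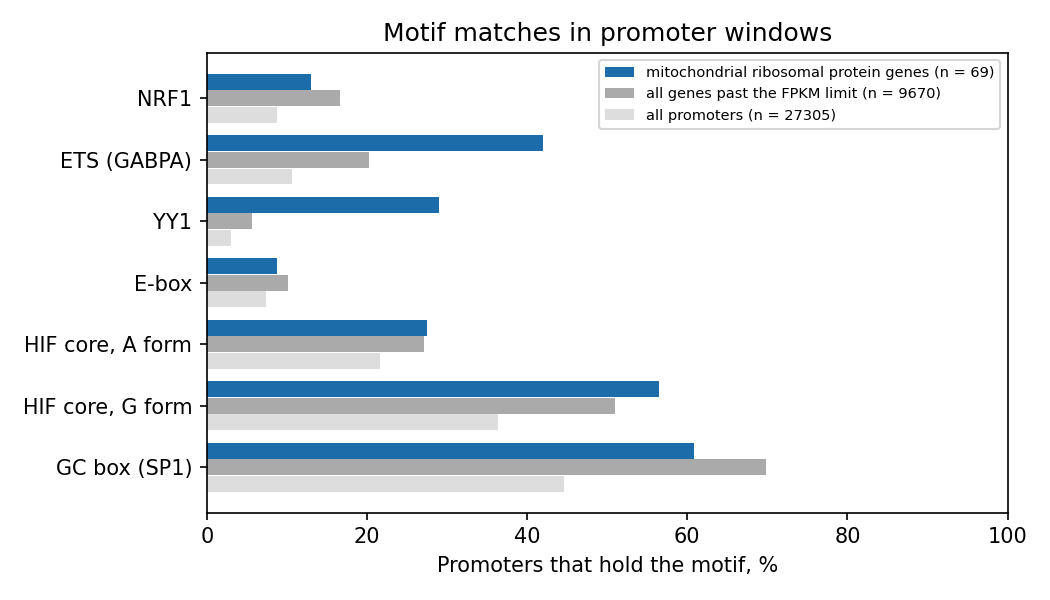
Percent of promoter windows that hold the letters of each motif (x axis), with only the first listed window of each gene symbol. Bars show 69 mitochondrial ribosomal protein genes (blue), 9670 genes with a mean of at least 0.5 FPKM (grey) and all 27305 windows (light grey). ETS (42.0% against 20.3%) and YY1 (29.0% against 5.64%) letters were more frequent in the mitochondrial ribosomal protein genes than in the 9670, and those of NRF1 were not (13.0% against 16.6%).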

How the data were processed

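RNA sequencing libraries of SQ20B cells in normoxia and hypoxia were analysed from the deposited table. Groups came from the source labels, since the treatment text is the same for all samples. The authors aligned reads to hg19 with STAR 2.3.0.1 and obtained FPKM per RefSeq transcript with the Cufflinks 2.1.1 suite, giving 1 deposited FPKM per transcript and condition over 4 replicates. The table also held the authors' log2 fold changes, test statistics, p-values and q-values, which were not used. Of 24812 transcripts, 24289 (97.9%) were matched to a symbol through RefSeq (GRCh38.p14, names and promoter windows only), and FPKM were summed per gene. Gene positions came from GENCODE v44lift37 (GRCh37).

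Changes were log2 ratios with a pseudocount of 0.1, for genes with a mean of at least 0.5 FPKM, and a change past 1.5-fold was counted. Since FPKM are relative to all mapped fragments, a change in a few abundant genes moves the rest. Named were the 5 lowest and 5 highest changes and the 3 most abundant genes of each subunit, and every member of the functional groups. The members and lists were chosen with earlier results of these data known. Genes are not replicates, so medians and counts are descriptions. Computation used Python 3.11.15 with pandas 2.3.3 and numpy 2.4.6. The count past 1.5-fold was tried on simulated 2-fold changes, which are larger than most changes here, and the gene sums were not tested. Alternatives were another pseudocount, filter, scaling, fold and membership.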

Additional observations from a re-analysis of the deposited data

How the results depend on the processing

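Among 82 alternative values of the medians, counts and sums, 71 stayed within 0.1 on the log2 scale or 1.5 times of a count, 10 moved and 1 reversed. Some of the 71 could not move by construction, such as the ratio of sums under another pseudocount. The limit of 0.1 is also larger than the difference of the subunit medians (-0.05). The 71 is therefore not a measure of stability. Scaling both conditions to equal summed FPKM raised the median of all genes by 0.22, and gave medians of -0.37 (large) and -0.31 (small), 11 genes at least 1.5-fold lower and a ratio of summed hypoxia to normoxia FPKM of 0.802, against 0.686 as deposited. Quantile scaling gave -0.40, -0.37, 18 genes and 0.804. With a fold of 1.2, 73 genes were counted as lower, and with a fold of 2, 2 genes. The difference of the subunit medians was 0.00767 with a pseudocount of 1. With equal sums MRPL22 (0.0485) and MRPS14 (0.0208) changed sign, as did MRPS17 (0.0297) under quantile scaling. Relative to the median of all genes, 75 of the 77 were lower under equal sums and 74 under quantile scaling. The table holds 1 pooled value per condition, so limma on replicates and leaving out replicates were not run. No paired analysis was possible because the columns carry no replicate numbers.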
